A study of Mus musculus with 36 samples.

Results

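The interferon-stimulated antiviral genes are genes that cells switch on when an interferon binds its receptor, and their products sense, edit, degrade or trap viral RNA and proteins. They were taken here as a list of 44 gene symbols, of which 43 were found among the 24421 genes of the count files. The remaining symbol, Rnf213, was not analysed here. The members were chosen by name and not by a threshold on their values. They were followed in hepatic stellate cells (HSC, the vitamin A storing pericytes of the liver), liver sinusoidal endothelial cells (LSEC, the fenestrated lining of the liver capillaries) and hepatocytes. The mice were C57BL/6. Each cell type had 4 libraries labelled WT, from animals given PBS according to the series design, 4 taken 12 h and 4 taken 36 h after Kupffer cells (macrophages that live in the liver capillaries) were depleted with DT (diphtheria toxin), which makes 36 libraries. The labels do not give the allele that made Kupffer cells sensitive to the toxin, the sex or age of the animals, or whether a library is 1 animal. No group received the toxin and kept its Kupffer cells, so the toxin and the loss of the cells cannot be told apart. The p-values measure the spread between libraries, which may in part be technical.

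Interferons are secreted proteins that bind cell surface receptors and activate the kinases JAK1, JAK2 and TYK2. These phosphorylate STAT2, which works with IRF9 at a DNA element called the interferon-stimulated response element (ISRE) near the start of target genes, and another element, GAS, serves type II interferon. Many target genes encode parts of the same machinery, such as STAT2 and IRF7, or brakes on it, such as USP18 and SOCS1.

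Library totals ran from 25404719 to 31734631 counts, and levels are given as CPM, the count of a gene per 1000000 counts of the scaled library. The summed level of 9 HSC markers was 17543 to 40115 CPM in HSC libraries and at most 297 CPM elsewhere, that of 9 LSEC markers was 17077 to 24481 CPM in LSEC libraries and at most 142 CPM elsewhere, and that of 8 hepatocyte markers was at least 61761 CPM in hepatocyte libraries and at most 312 CPM elsewhere. The summed level of 9 Kupffer cell markers was lower at 12 h than in WT in each cell type. It was 2.84 to 15.7 CPM in HSC WT libraries and 0.29 to 2.55 CPM at 12 h, 11.8 to 25.1 and 2.08 to 5.24 CPM in LSEC, and 1.995 to 27.4 and 0 to 0.55 CPM in hepatocytes. At 36 h it was 0.61 to 13.1 CPM in HSC, 1.28 to 16.05 CPM in LSEC and 0.46 to 1.93 CPM in hepatocytes. Replicate 4 had the highest 36 h sum in HSC and in LSEC, inside the WT range of each. At 12 h Timd4 was at 0 in the HSC, LSEC and hepatocyte libraries, and Clec4f in those of HSC and hepatocytes. Markers of plasmacytoid dendritic cells, which can make much interferon, summed to at most 2.45 CPM in any library, with Siglech at 0 in the HSC libraries of WT and 12 h. Monocyte and neutrophil markers summed to 4.86 to 10.2 CPM in LSEC WT libraries and 6.63 to 19.9 CPM at 12 h, and lymphocyte markers to at most 4.0 CPM in any library. The part of these cells in the members' values was not tested.

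Some libraries stood apart. Of the 43 members, 32 were highest in replicate 3 among the HSC libraries of 12 h and 39 in replicate 3 among the LSEC libraries of 12 h, and 34 and 26 were highest in replicate 4 of 36 h. Summed HSC markers were lowest in the same HSC libraries, at 17543 CPM in replicate 3 of 12 h against 25555 to 29096 CPM in the other three, and at 20964 CPM in replicate 4 of 36 h against 33950 to 37389 CPM. Summed LSEC markers were likewise lowest in the same LSEC libraries, at 17077 CPM against 19239 to 20489 CPM at 12 h and 20856 CPM against 21115 to 23748 CPM at 36 h. LSEC 36 h replicate 4 also had the highest sums of HSC markers (297 CPM) and hepatocyte markers (304 CPM) of its group. The hepatocyte libraries fell into 5 with 333.2 to 678.6 CPM of Malat1, a nuclear RNA, and 7 with 35.3 to 66.7 CPM. The 5 were WT replicates 1 and 2, 12 h replicate 1 and 36 h replicates 1 and 2. The counts of members called in HSC and LSEC after depletion are given with and without these libraries. In RNA of bulk cells, fewer cells that express a gene and less of its RNA per cell cannot be told apart.

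In WT libraries most members were higher in HSC and LSEC than in hepatocytes, and a few had the opposite order. On the scale of CPM per kb of exon, which allows genes to be compared, the level of Ifitm3, a membrane protein that hinders virus entry, was the highest of the members in each cell type, at 1667 ± 229 in HSC, 866 ± 129 in LSEC and 828 ± 43.7 in hepatocytes (SD, n = 4). The next by level per kb was Lgals3bp, a secreted glycoprotein that binds galectins, in HSC (976 ± 107) and LSEC (399.7 ± 24.8), and Lgals9, the gene of galectin 9, in hepatocytes (698 ± 25.8). Mx1 was the lowest member in HSC and LSEC, at 0.03 and 0.0088 per kb. In hepatocytes it stood at 0.134 per kb, where Oas3, Sp100 and Epsti1 were lower and Oas2 was at 0. Laboratory strains such as C57BL/6 carry a defective allele of this antiviral GTPase.

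**Figure D1:**
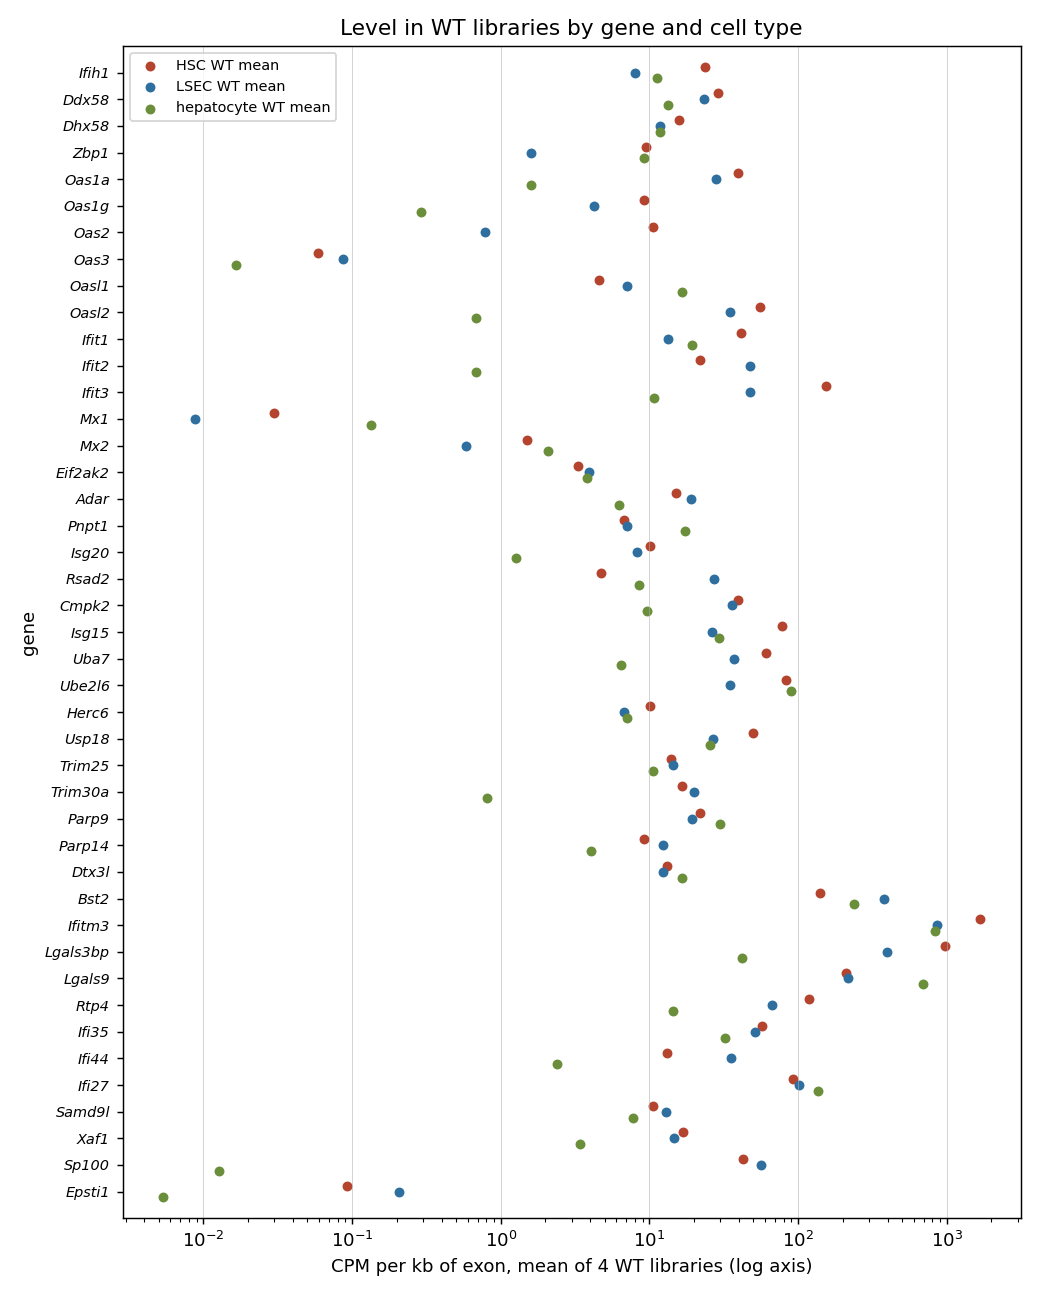
Level of each member in WT libraries, as the mean CPM per kb of exon over 4 libraries (log axis), for HSC, LSEC and hepatocytes. Ifitm3 lies furthest to the right in each cell type, Oas2 has no hepatocyte point because all hepatocyte libraries were at 0, and Oasl1, Pnpt1 and Lgals9 are highest in hepatocytes.

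Tested in the 12 WT libraries, 30 of 42 members were higher in HSC than in hepatocytes and 8 were lower, where 43.2% and 35.9% of all genes were called in those directions. A gene is called here when its adjusted p over all genes tested is under 0.05. LSEC exceeded hepatocytes for 25 members and fell below them for 9, against 42.7% and 36.3% of all genes. LSEC exceeded HSC for 6 members and fell below them for 16, against 27.1% and 29.7% of all genes. The median log2 difference of the members was 1.08 for HSC against hepatocytes (0.18 for all genes) and -0.17 for LSEC against HSC (-0.01 for all genes).

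By these pairwise calls, 13 members were highest in HSC, 5 in LSEC and 5 in hepatocytes. The share of all genes in each such order was not counted, so these counts describe the list and are not read as a trait of the members. Those highest in HSC were Ifih1, Dhx58, Oas1g, Oas2, Ifit1, Ifit3, Isg15, Uba7, Herc6, Usp18, Ifitm3, Lgals3bp and Rtp4. Those highest in LSEC were Ifit2, Adar, Rsad2, Bst2 and Ifi44, and those highest in hepatocytes were Oasl1, Pnpt1, Parp9, Dtx3l and Lgals9. A further 14 were lowest in hepatocytes with no called order between HSC and LSEC, and 3 (Zbp1, Mx2 and Ube2l6) were lowest in LSEC with no called order between the others.

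Wide contrasts came from the OAS family, enzymes that make a second messenger when they meet double-stranded RNA, and from Sp100, a nuclear body protein. Oas2 stood at 19.7, 67.2, 35.8 and 45.3 CPM in the HSC WT libraries, at 2.72, 3.01, 3.41 and 3.34 CPM in those of LSEC and at 0 in all 12 hepatocyte libraries. Against a floor of 3 counts over the hepatocyte WT group, its level was at least 1118-fold higher in HSC and at least 82.9-fold higher in LSEC, and LSEC lay below HSC by a log2 difference of -3.73 ± 0.34 (SE; adjusted p = 3.13e-06). Sp100 stood at 145.6 to 188.5 CPM in HSC, 195.9 to 225.6 CPM in LSEC and 0 to 0.192 CPM in hepatocytes. Oasl1 ran the other way, at 8.44, 10.1, 9.996 and 11.9 CPM in HSC, 12.5, 19.3, 17.9 and 12.3 CPM in LSEC and 34.4, 45.7, 33.5 and 32.2 CPM in hepatocytes, with no overlap between any of the cell types.

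HSC and LSEC also differed from each other at rest for single members. Rsad2, the gene of viperin, an enzyme that makes a chain-terminating nucleotide, stood at 15.1, 22.9, 14.5 and 18.9 CPM in HSC and 93.8, 125.2, 92.9 and 97.01 CPM in LSEC, a log2 difference of 2.53 ± 0.21 (SE; adjusted p = 1.21e-07). The IFIT genes, whose products bind viral RNA ends, were split. Ifit2 was higher in LSEC (132.2 to 218.7 CPM) than in HSC (76.6 to 93.3 CPM), while Ifit1 and Ifit3 were lower in LSEC, with log2 differences of -1.62 ± 0.31 and -1.70 ± 0.23 (SE). Zbp1, a sensor of Z-form nucleic acid, stood at 1.90 to 4.89 CPM in LSEC, under every HSC library (13.4 to 27.0 CPM) and every hepatocyte library (8.74 to 31.3 CPM).

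At 12 h after depletion the members rose broadly in HSC. Of 43 members tested, 35 were higher than in WT and none was lower, where 17% of all genes were called higher and 15.1% lower. No member was lower at an unadjusted p under 0.05 or by DESeq2 either. In 33 members all 12 h libraries lay above all WT libraries, where 14.7% of all genes had this. The median log2 fold change was 1.01, against 0.01 for all genes. The summed level of the members was 5857, 7612, 6508 and 7278 CPM in WT replicates 1 to 4 and 10133, 8512, 16348 and 11701 CPM at 12 h. Without replicate 3 of 12 h and replicate 4 of 36 h the count of members higher was 33, and it was 33 to 37 with each single library of the fit left out.

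**Figure D2:**
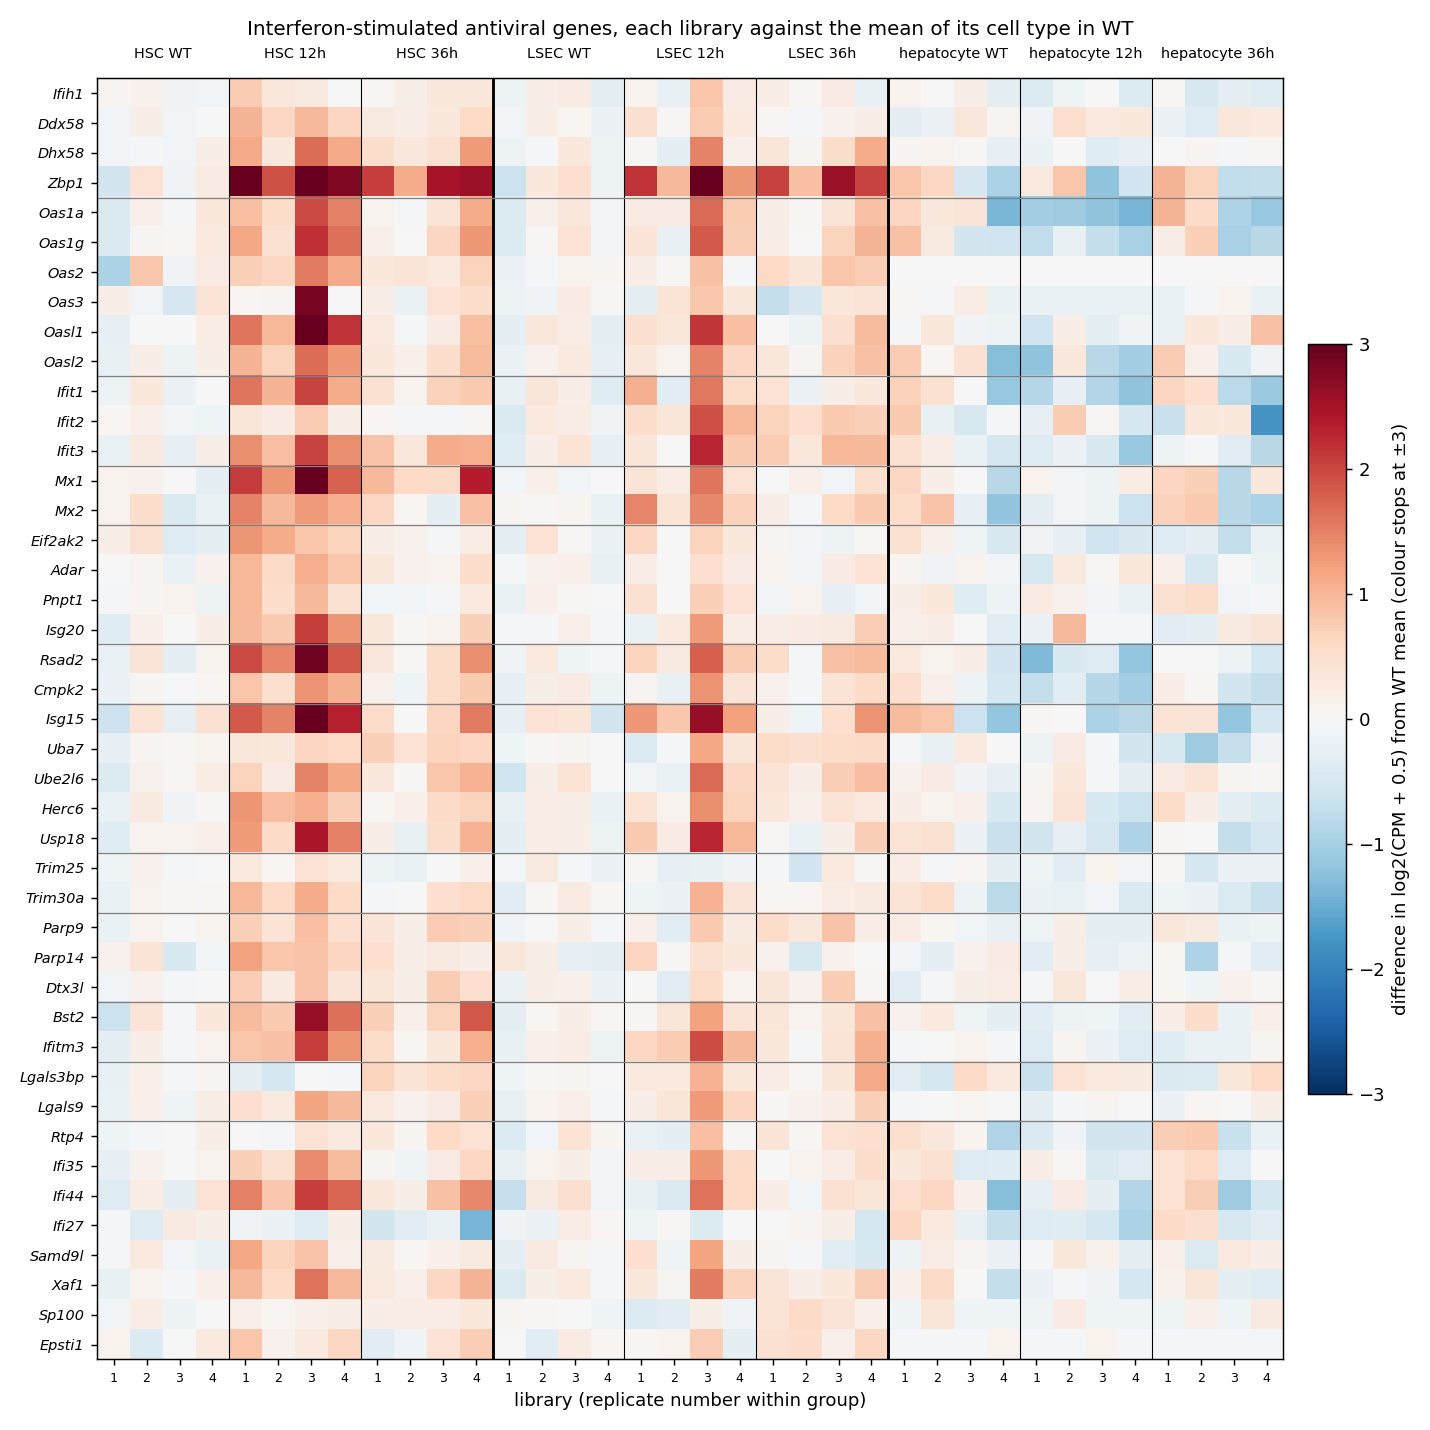
Difference in log2(CPM + 0.5) of each library from the WT mean of its cell type, for 43 members (rows, grouped by role with grey lines) and 36 libraries (columns, replicate numbers within groups). Red is higher and blue lower than WT; HSC and LSEC replicate 3 of 12 h are the darkest columns, Zbp1 is red in all HSC libraries of 12 h and 36 h, and hepatocyte columns are mostly pale or blue.

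Among sensors of foreign nucleic acid, Zbp1 had the largest change of any member with a mean of at least 5 CPM. It stood at 13.4, 27.0, 18.4 and 23.6 CPM in HSC WT replicates 1 to 4 and at 163.6, 76.3, 226.6 and 138.5 CPM at 12 h. The lowest 12 h library was above the highest WT library, and the log2 fold change was 2.90 ± 0.36 (SE; adjusted p = 0.000119). Ddx58 (RIG-I, a sensor of RNA ends) and Dhx58 (LGP2, its regulator) rose by 0.84 and 1.17 on the log2 scale. Ifih1 (MDA5, a sensor of long double-stranded RNA) did not pass, at 119 to 141 CPM in WT and 129 to 218 CPM at 12 h (log2 fold change 0.38, adjusted p = 0.0643).

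In the OAS family, 5 of 6 members rose in HSC. Oasl1, which hinders translation of Irf7 mRNA, stood at 8.44, 10.1, 9.996 and 11.9 CPM in WT and at 31.6, 20.4, 93.7 and 47.2 CPM at 12 h, a log2 fold change of 2.27 ± 0.37 (SE; adjusted p = 0.000638) with no overlap. Oas1a rose from 53.7 to 90.6 CPM in WT to 106.5 to 288 CPM, and Oas1g from 13.2 to 21.9 CPM to 24.7 to 83.9 CPM. These are close copies of each other, and how reads common to both were counted is not known. Oasl2 rose by 1.22 and Oas2 by 0.96 on the log2 scale, Oas2 with overlapping libraries. Oas3 was near the limit of detection and did not pass: 3 of the 12 h libraries stood at 0.258 to 0.296 CPM, inside the WT range of 0.034 to 0.502 CPM, and replicate 3 at 4.97 CPM.

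The 3 IFIT genes rose in HSC, though by unequal amounts. Ifit1 stood at 99.3, 136.2, 96.5 and 110.4 CPM in WT and 337, 221, 449 and 236 CPM at 12 h, and Ifit3 at 234, 320.0, 225 and 302 CPM and then 706, 501, 1086 and 699 CPM. Their log2 fold changes were 1.51 ± 0.22 and 1.49 ± 0.23 (SE). Ifit2 stood at 88.0, 93.3, 79.1 and 76.6 CPM in WT and 107.8, 100.2, 142.9 and 94.6 CPM at 12 h, which is 0.42 ± 0.13 on the log2 scale (SE; adjusted p = 0.0214). Both Mx GTPase genes were called. Mx2 stood at 2.49 to 5.31 CPM in WT and 7.46 to 10.8 CPM at 12 h, and Mx1 at 0 to 0.157 CPM and then at 2.07, 1.01, 8.69 and 1.55 CPM, so that its large fitted log2 fold change of 5.02 starts from almost no counts.

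All 4 enzymes acting on RNA rose in HSC: Eif2ak2 (PKR, which halts translation) by 1.01, Adar (which edits double-stranded RNA) by 0.90, Pnpt1 (a mitochondrial exoribonuclease) by 0.79 and Isg20 (an exonuclease) by 1.41 on the log2 scale. So did both nucleotide enzymes. Rsad2 stood at 15.1, 22.9, 14.5 and 18.9 CPM in WT and at 70.8, 49.6, 137 and 64.7 CPM at 12 h, a log2 fold change of 2.19 ± 0.34 (SE; adjusted p = 0.00041), and Cmpk2, a nucleotide kinase, rose by 0.99. For Rsad2 no library of 12 h reached down to the WT range.

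The ISG15 conjugation pathway rose as a whole in HSC, with 5 of 5 members called. Isg15, the ubiquitin-like modifier itself, stood at 36.4, 75.4, 47.1 and 77.7 CPM in WT and at 204, 159, 539 and 288 CPM at 12 h. Its log2 fold change was 2.35 ± 0.40 (SE; adjusted p = 0.000896), and the lowest 12 h library was above the highest of WT. The activating enzyme Uba7 rose by 0.50, the conjugating enzyme Ube2l6 by 0.96 and the ligase Herc6 by 1.05 on the log2 scale. Usp18, which removes ISG15 and also dampens signalling at the receptor, rose by 1.63, from 67.5, 93.7, 93.0 and 96.7 CPM to 211, 129, 479.8 and 249.9 CPM.

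Of the other HSC members, Trim30a, Parp9, Parp14 and Dtx3l rose by 0.60 to 0.89 on the log2 scale, and Trim25, a ubiquitin ligase for RIG-I, did not pass (log2 fold change 0.30, adjusted p = 0.055). The restriction factors Bst2 (tetherin, which holds virions at the membrane) and Ifitm3 rose by 1.66 and 1.38. Ifitm3 stood at 933, 1290.3, 1089 and 1208 CPM in WT and 1989.5, 2064, 4697 and 2826 CPM at 12 h, without overlap. The galectin genes parted: Lgals9 rose by 0.80 on the log2 scale, while Lgals3bp stood at 1954, 2529, 2214 and 2398 CPM in WT and 1842, 1558, 2292 and 2217 CPM at 12 h and did not pass (-0.18, adjusted p = 0.347). Of the remaining 8 members Ifi35, Ifi44, Samd9l and Xaf1 rose, and Rtp4, Ifi27, Sp100 and Epsti1 did not pass.

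**Figure D3:**
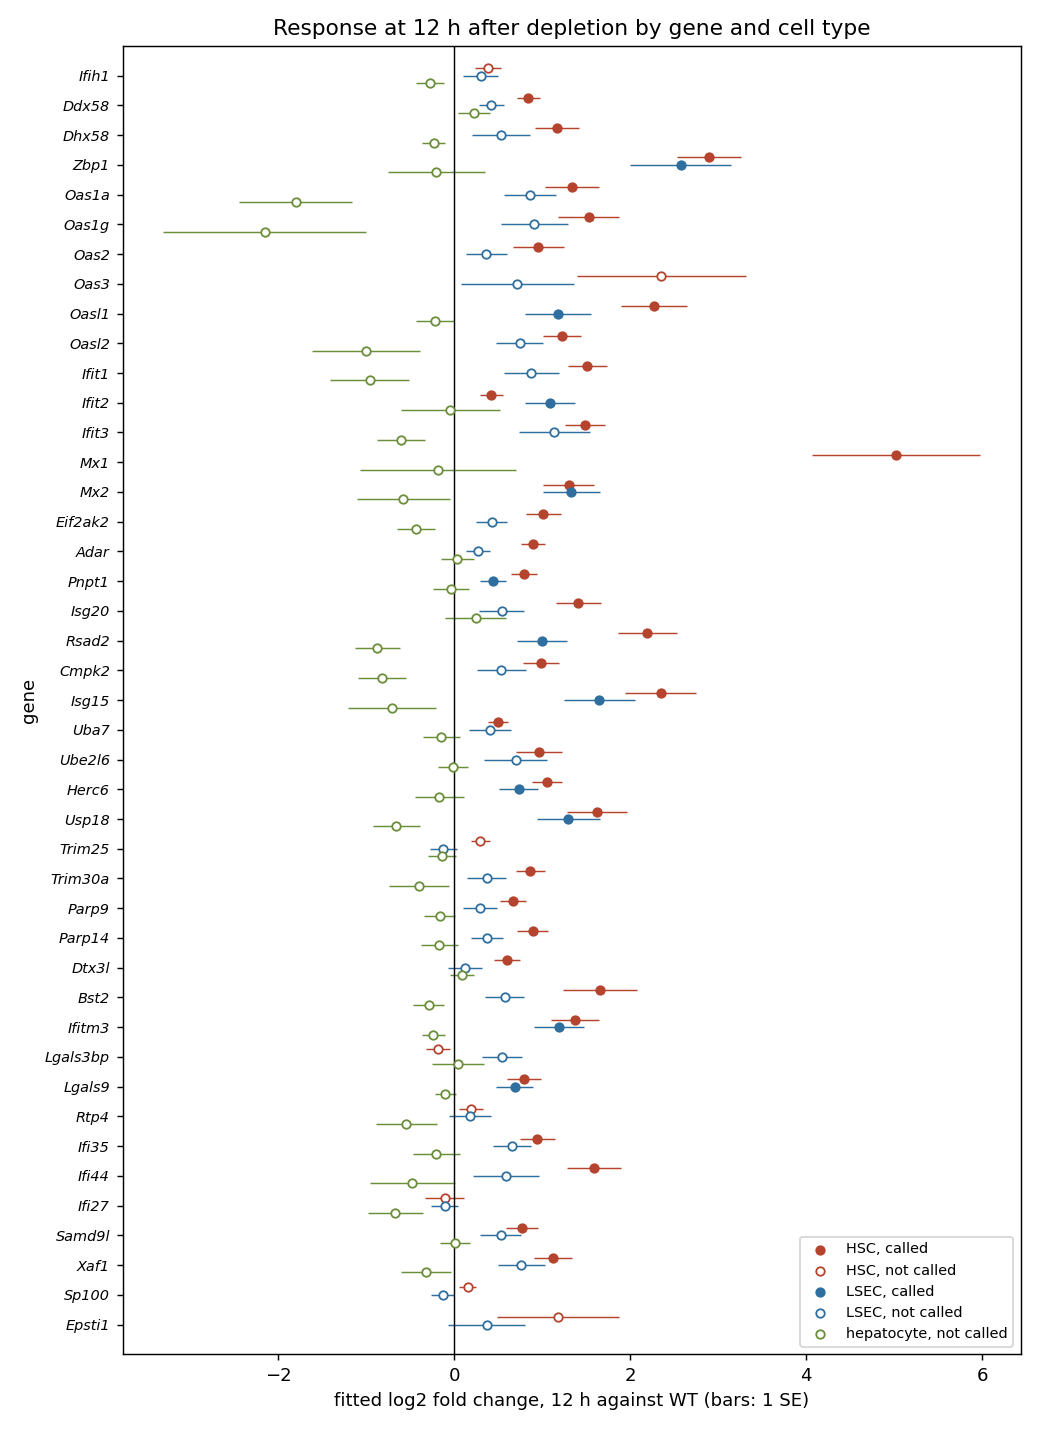
Fitted log2 fold change at 12 h against WT for each member in HSC, LSEC and hepatocytes, with bars of 1 SE; filled points are called (adjusted p under 0.05). HSC points are filled for 35 members and LSEC points for 11, and no hepatocyte point is filled.

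The promoters of the members with the largest called change in HSC are shown so that the letters of the element at which STAT2 and IRF9 act can be seen in them. Zbp1 is not in the promoter table, so Isg15, Oasl1 and Rsad2, the next by size, are printed, each from 250 bases before to 50 bases after the start annotated by RefSeq on GRCm38.p6, in the direction of transcription. Capitals mark matches to GAAANNGAAA, the core of the ISRE, on either strand.
Isg15: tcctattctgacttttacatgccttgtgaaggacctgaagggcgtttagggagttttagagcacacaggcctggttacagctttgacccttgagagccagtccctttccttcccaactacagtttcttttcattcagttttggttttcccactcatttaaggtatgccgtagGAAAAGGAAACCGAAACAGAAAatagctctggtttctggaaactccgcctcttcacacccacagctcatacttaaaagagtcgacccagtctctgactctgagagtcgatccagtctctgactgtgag
Oasl1: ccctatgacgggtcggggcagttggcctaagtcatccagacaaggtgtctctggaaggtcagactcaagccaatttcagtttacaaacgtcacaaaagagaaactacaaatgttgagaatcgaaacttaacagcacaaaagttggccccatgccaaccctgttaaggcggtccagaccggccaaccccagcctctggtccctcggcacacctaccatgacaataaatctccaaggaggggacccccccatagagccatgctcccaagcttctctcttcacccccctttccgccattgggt
Rsad2: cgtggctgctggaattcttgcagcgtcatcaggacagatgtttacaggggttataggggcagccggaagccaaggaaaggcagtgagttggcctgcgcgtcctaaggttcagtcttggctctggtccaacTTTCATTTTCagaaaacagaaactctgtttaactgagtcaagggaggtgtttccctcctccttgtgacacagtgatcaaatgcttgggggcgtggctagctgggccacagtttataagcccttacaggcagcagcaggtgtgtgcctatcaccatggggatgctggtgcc
The Isg15 window (chr4:156200769-156201068, minus strand) holds 3 overlapping matches, the first beginning at -78 and the last ending at -57 from the start. In the Rsad2 window (chr12:26456403-26456702, minus strand) there is 1 match, read on the other strand, from -120 to -111, and the Oasl1 window (chr5:114922990-114923289, plus strand) has none of these letters. Such a match is a run of letters and not a measured site.

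Of the 43 members, 33 are in the promoter table, and 14 of these (42.4%) have a match to GAAANNGAAA in a window, where 3.99% of all 27025 genes in the table do. The 14 are Bst2, Ddx58, Eif2ak2, Ifih1, Ifit1, Ifit3, Ifitm3, Isg15, Lgals9, Oas1a, Oas1g, Oas3, Rsad2 and Trim30a. The GAS letters TTCNNNGAA, also on both strands, were found in windows of 8 members (24.2%) and of 9.55% of all genes. The median log2 fold change in HSC at 12 h was 1.43 for the 14 members with the ISRE letters, 12 of which were called higher, and 0.95 for the 19 without them, 15 of which were called higher. The ranges overlapped, at 0.38 to 2.36 and -0.18 to 2.27. In LSEC the medians were 0.79 and 0.54, with 4 of 14 and 4 of 19 called higher. In hepatocytes the order was the other way, at -0.43 and -0.14 over 13 and 17 members, with 0 called. A link between the letters and the response was not tested.

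In LSEC at 12 h, Zbp1, Isg15, Usp18 and Ifitm3 were among the members that rose. Of 42 tested, 11 were higher than in WT and none lower, against 9.74% of all genes called higher and 8.5% called lower, and none was lower at an unadjusted p under 0.05 or by DESeq2. The 11 were Zbp1, Oasl1, Ifit2, Mx2, Pnpt1, Rsad2, Isg15, Herc6, Usp18, Ifitm3 and Lgals9, and all of them were among the 35 called in HSC, of which they make 31.4%. Since 35 of 43 members were called in HSC, most of any such list would be found there. The same overlap over all genes was not counted. The median log2 fold change was 0.56 (-0.02 for all genes), and 39 of 42 fold changes were above 0. In 10 members all 12 h libraries lay above all WT libraries (11.1% of all genes).

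The LSEC count rested on few libraries. It was 5 without 12 h replicate 3, 7 without 12 h replicate 4, 21 without 12 h replicate 2, 4 without WT replicate 1 or without WT replicate 4 and 6 without WT replicate 3, and it was 8 without the pair of libraries that stood apart and 20 by DESeq2, which called 21.6% of all genes. The summed level of the members was 4003, 4948, 5114 and 4315 CPM in WT and 5539, 5321, 11482 and 6518 CPM at 12 h, so that replicate 3 lay far above the others.

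Zbp1 had the largest called change in LSEC too. It stood at 1.90, 4.19, 4.89 and 2.89 CPM in WT and at 16.5, 6.90, 49.4 and 9.0 CPM at 12 h, without overlap, a log2 fold change of 2.57 ± 0.57 (SE; adjusted p = 0.0078). Isg15 stood at 16.2, 26.4, 24.8 and 12.9 CPM in WT and at 48.4, 34.1, 120.7 and 46.2 CPM at 12 h (1.65 ± 0.40, SE; adjusted p = 0.0128). Again the groups did not overlap, and replicate 3 was far above the other three. Usp18 moved from 38.5, 54.9, 53.7 and 41.8 CPM to 80.7, 55.5, 229.8 and 93.0 CPM, where replicate 2 was only just above the highest WT library, and its log2 fold change was 1.30 ± 0.36 (SE; adjusted p = 0.022). Ifitm3 rose from 499.9, 642, 679 and 527 CPM to 901, 994, 2269 and 1141 CPM, which is 1.19 ± 0.29 on the log2 scale (SE; adjusted p = 0.0116).

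Within families some members were called in LSEC and others were not. Ifit2 stood at 132.2, 218.7, 209 and 165.8 CPM in WT and 255, 229, 686 and 358 CPM at 12 h, a log2 fold change of 1.09 ± 0.28 (SE; adjusted p = 0.0172). In HSC it was 0.42, and the difference between the responses did not pass (-0.67 ± 0.48, SE; adjusted p = 0.664). Ifit1 stood at 27.2 to 44.9 CPM in WT and 27.7 to 106.0 CPM at 12 h, and Ifit3 at 62.5 to 107.3 and 81.3 to 397 CPM, and neither passed (adjusted p = 0.0648 and 0.0627). Of the OAS family Oasl1 was called in LSEC, from 12.5, 19.3, 17.9 and 12.3 CPM to 21.5, 19.4, 69.4 and 28.8 CPM, with replicate 2 only just above WT. Rsad2 rose from 92.9 to 125.2 CPM to 162.7, 121.6, 351.5 and 173.1 CPM, where replicate 2 lay inside the WT range. The members of the PARP and DTX3L group, the ubiquitin ligases and the 8 remaining interferon-induced genes had no call in LSEC.

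**Figure D4:**
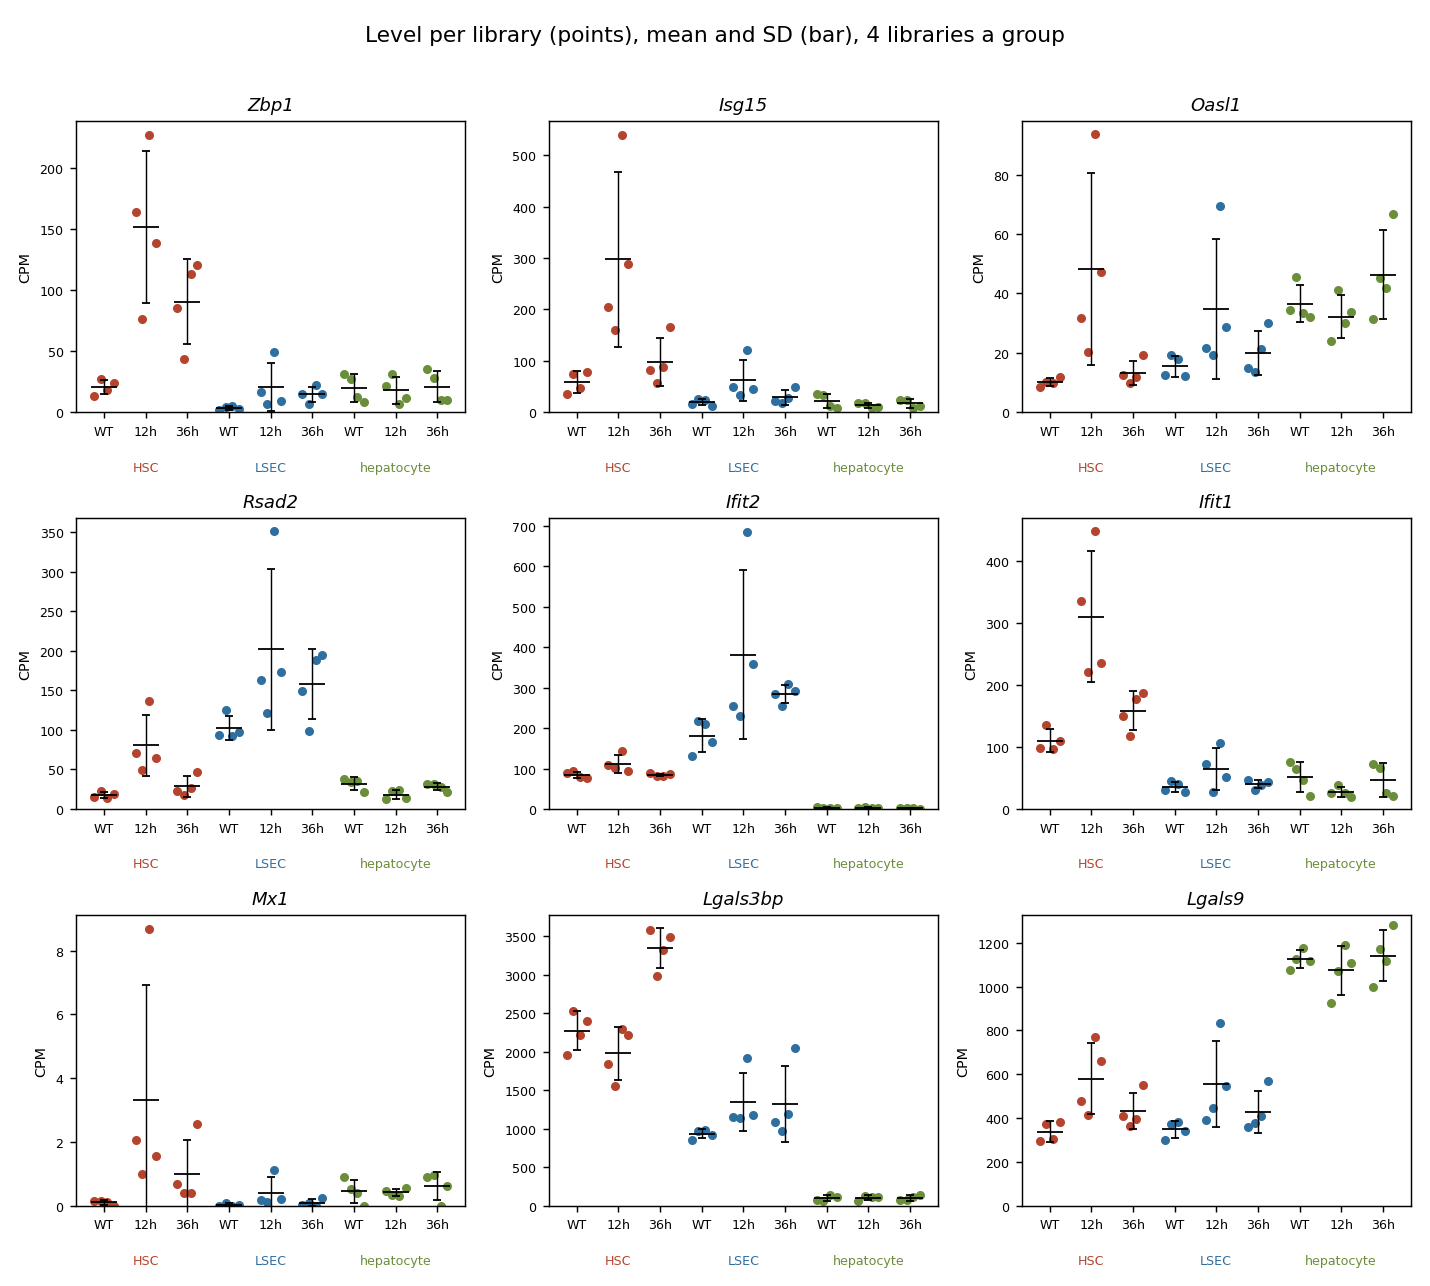
CPM of 9 members in each library (points, replicates 1 to 4 from left to right), with the mean and SD of 4 libraries (black), by cell type and time. Zbp1 and Isg15 are highest in HSC at 12 h, Rsad2 and Ifit2 are highest in LSEC, Lgals3bp is highest in HSC at 36 h, Oasl1 has its highest group mean in HSC at 12 h, and Lgals9 is highest in hepatocytes.

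Hepatocytes had no called member at 12 h. Of 39 members tested none was higher or lower by edgeR or by DESeq2, which called 0% and 0.339% of all genes. An unadjusted p under 0.05 by edgeR was found for 5 members, each lower than in WT, and for 4% of all genes. The median log2 fold change of the members was -0.23 (-0.01 for all genes), and 6 of 39 were above 0. Members not tested were Oas2, Oas3, Sp100 and Epsti1, each with counts in at most 5 of the 12 libraries.

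Per library, Isg15 stood at 35.8, 32.9, 11.5 and 7.94 CPM in hepatocyte WT replicates 1 to 4 and at 18.8, 18.1, 9.15 and 9.97 CPM at 12 h. Zbp1 stood at 31.3, 27.3, 12.1 and 8.74 CPM in WT and 21.3, 31.4, 7.20 and 11.6 CPM at 12 h. For both genes WT replicates 1 and 2, which have high Malat1 and the 2 higher sums of Kupffer cell markers (17.1 and 27.4 CPM, against 1.995 and 3.84 CPM), lay above WT replicates 3 and 4. In 36 h replicates 1 to 4, Isg15 stood at 24.2, 24.2, 7.90 and 12.8 CPM and Zbp1 at 35.7, 27.8, 10.2 and 10.4 CPM. Their Kupffer cell marker sums were 1.93, 1.42, 1.08 and 0.46 CPM. Replicate 2 of 12 h, highest for Zbp1 at that time, had low Malat1 and a sum of 0.39 CPM. The cause of these differences was not tested. Rsad2 stood at 38.3, 33.8, 35.8 and 20.9 CPM in WT and 12.3, 22.5, 23.8 and 13.7 CPM at 12 h, with a log2 fold change of -0.87 ± 0.25 (SE) that did not pass (adjusted p = 0.691). With the Malat1 side as a term in the fit, or with the low Malat1 libraries only, no member was called higher at 12 h. Calls of lower members at 12 h are not given for these fits. Of the 12 h libraries only replicate 1 has high Malat1, so the fit of that side has no spread at 12 h and is not read.

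The 12 h responses were then compared between cell types within 1 fit of all libraries. All 43 members passed the filter of this fit. Oas2, Oas3, Sp100 and Epsti1, not tested within hepatocytes, passed it through their counts in HSC and LSEC. Oas2 had no count in any hepatocyte library, so it has no hepatocyte response to compare. Any of these members within the counts against hepatocytes is not read as a difference in response. Against hepatocytes, the HSC response was higher for 25 of 43 members and lower for none (also none at an unadjusted p under 0.05 or by DESeq2), where 5.03% and 4.17% of all genes were called. Among the 25 were Rsad2, with a difference in log2 fold change of 3.01 ± 0.46 (SE; adjusted p = 0.00017), Zbp1 (3.03 ± 0.77), Isg15 (2.99 ± 0.68) and Oasl1 (2.43 ± 0.52). That count was 21 without 12 h replicate 3 and 36 h replicate 4 of HSC and LSEC, 14 without HSC 12 h replicate 3 alone, 15 without hepatocyte WT replicate 1 and 16 without hepatocyte WT replicate 2 or without hepatocyte 12 h replicate 4. The LSEC response was higher than that of hepatocytes for 6 members (Zbp1, Oas1a, Ifit3, Rsad2, Usp18 and Ifitm3) and lower for none, where 1.97% and 1.6% of all genes were called. At an unadjusted p under 0.05 it was higher for 21 and lower for none, and by DESeq2 higher for 12 and lower for none. The shares of all genes by these measures are not given here. Of the 6, Oas1a and Ifit3 were not called in LSEC at 12 h against WT. In hepatocytes the mean of Oas1a was 3.02 CPM in WT and 0.885 CPM at 12 h, and that of Ifit3 was 18.8 and 12.8 CPM.

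The LSEC and hepatocyte difference was unstable to single libraries. The count was 3 without 12 h replicate 3 and 36 h replicate 4 of HSC and LSEC, and 0 without LSEC 12 h replicate 3, hepatocyte WT replicate 1 or hepatocyte 12 h replicate 4, 1 without LSEC WT replicate 1, hepatocyte WT replicate 2 or hepatocyte 12 h replicate 3, and 2 without LSEC WT replicate 4. It was 3 without LSEC WT replicate 2, LSEC 36 h replicate 3, HSC WT replicate 3 or 4, or HSC 36 h replicate 1 or 3, and 11 without hepatocyte WT replicate 4.

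Between HSC and LSEC no member's 12 h response was called different by edgeR or by DESeq2, where 0.822% of all genes were called higher in HSC and 0.801% lower by edgeR and 3.37% in either direction by DESeq2. An unadjusted p under 0.05 was found for 5 members, each higher in HSC, and for 11.7% of all genes. HSC and LSEC libraries with the same replicate number deviated together, and with that number as a block within each time 9 members responded more in HSC and none less, where 3.38% and 2.54% of all genes were called. The 9 were Rsad2 (difference in log2 fold change 1.23 ± 0.16, SE; adjusted p = 0.00114), Ifi44 (1.16 ± 0.31), Oasl1 (1.06 ± 0.20), Bst2 (1.03 ± 0.25), Isg20 (0.92 ± 0.18), Dhx58 (0.74 ± 0.20), Oas1g (0.70 ± 0.18), Adar (0.64 ± 0.15) and Ddx58 (0.44 ± 0.12). Ifi44, a GTPase-like protein, stood at 28.1, 42.9, 30.4 and 50.3 CPM in HSC WT libraries and 106.3, 65.4, 156.5 and 124.1 CPM at 12 h, and at 61.4, 119.8, 139.2 and 93.4 and then 85.2, 73.0, 309 and 150.7 CPM in LSEC. Its HSC groups were apart and its LSEC groups overlapped.

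Set side by side over the 42 members tested in both, the log2 fold change at 12 h was larger in HSC for 38, with medians of 1.0 and 0.56. The fold changes of the members in the 2 cell types had a Pearson r of 0.77 and a Spearman rho of 0.74, over genes, which are not independent, in libraries that share replicate numbers. Ifit2 and Lgals3bp were among the 4 that did not follow this order, with log2 fold changes of 0.42 and -0.18 in HSC and 1.09 and 0.55 in LSEC.

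At 36 h the members in HSC had moved back toward WT levels. Against WT, 1 of 43 was higher and none lower, where 0.134% of all genes were called higher and 0.00789% lower. An unadjusted p under 0.05 was found for 18 members that were higher and 1 that was lower, and for 6.85% of all genes, and 40 of 43 fold changes were above 0, with a median of 0.44 (-0.01 for all genes). All 36 h libraries lay above all WT libraries in 10 members (3.5% of all genes). The called member was Zbp1, at 85.5, 43.6, 112.7 and 120.0 CPM, above every WT library, with a log2 fold change of 2.13 ± 0.35 (SE; adjusted p = 0.0323). No member was called without any 1 of the 4 WT libraries or without 36 h replicate 1, 3 or 4, nor without 12 h replicate 3 and 36 h replicate 4 both, 2 were called without 36 h replicate 2 or without 12 h replicate 3, and DESeq2 called 4, with 0.832% of all genes; the log2 fold change of Zbp1 was 1.96 to 2.37 over all alternatives.

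Compared with 12 h, 22 members were lower in HSC at 36 h and 1 was higher, where 15% of all genes were called lower and 12.9% higher. The median log2 fold change was -0.63 (-0.01 for all genes). Oasl1 had the largest fall: its 36 h libraries, at 12.5, 9.77, 12.0 and 19.2 CPM, were all below those of 12 h, by -1.87 ± 0.37 on the log2 scale (SE; adjusted p = 0.00229). Rsad2 stood at 22.5, 18.1, 26.0 and 47.3 CPM (-1.52 ± 0.33, SE) and Isg15 at 82.2, 56.9, 88.0 and 165.8 CPM (-1.61 ± 0.39, SE), where replicate 4 reached into the 12 h range for Isg15. The count of members lower was 22 without 12 h replicate 3 and 36 h replicate 4 both, 12 without 12 h replicate 3 alone, 11 without 36 h replicate 2 and 14 without 36 h replicate 3.

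The exception was Lgals3bp, which rose between 12 h and 36 h. It stood at 3585, 2988, 3316 and 3484 CPM at 36 h, above every 12 h library and every WT library, and its log2 fold change from 12 h was 0.74 ± 0.14 (SE; adjusted p = 0.00198). Uba7 also kept a level at 36 h (314.8, 259.3, 305.7 and 298.6 CPM) that lay above all WT libraries (162.4 to 207.0 CPM), although its change from WT did not pass.

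In LSEC at 36 h no member was called against WT by edgeR or by DESeq2, which called 0% and 0.82% of all genes. An unadjusted p under 0.05 was found for 8 of 42 members, each higher, and for 10.5% of all genes, and in 7 all 36 h libraries lay above all WT libraries (4.09% of all genes). Zbp1 stood at 15.2, 6.53, 22.2 and 14.95 CPM, above its WT range, and Ifit2 at 284, 254, 309 and 291 CPM, also above all WT libraries. Against 12 h, Usp18, Pnpt1 and Samd9l were lower and Sp100 was higher, where 10.8% and 10.6% of all genes were called. Usp18 fell by 1.08 on the log2 scale to 47.6, 40.7, 53.2 and 78.7 CPM, and Sp100 rose by 0.51 to 284, 318, 281 and 239.6 CPM from 162.2, 167.9, 243.8 and 199.7 CPM, with replicate 3 of 12 h above replicate 4 of 36 h.

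The 3 falls in LSEC rested on single libraries, and the rise of Sp100 did not pass in 1 fit of all 36 libraries (log2 fold change 0.54, adjusted p = 0.117; 0.00163 to 0.0446 under the other alternatives). There were 3 falls without 12 h replicate 3 and 36 h replicate 4 both, 0 without 12 h replicate 3 or 36 h replicate 3, 1 without WT replicate 3, WT replicate 4 or 36 h replicate 2, and 9 without 12 h replicate 2. In hepatocytes no member was called at 36 h against WT or against 12 h by edgeR (0% of all genes) or by DESeq2 (0.48% and 0.186%). At an unadjusted p under 0.05, 1 member was lower than in WT (4.98% of all genes) and 5 were higher than at 12 h (6.4% of all genes).

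No member's 36 h response was called different between any pair of cell types by edgeR. Between HSC and LSEC, 0 members had an unadjusted p under 0.05 and DESeq2 called 0, where 4.02% and 0.343% of all genes did so and edgeR called 0%. Between LSEC and hepatocytes, 3 members were higher in LSEC at an unadjusted p under 0.05 and DESeq2 called 1, against 6.9% and 0.663% of all genes and 0.00709% called lower by edgeR. Between HSC and hepatocytes these numbers were 5 and 1 members, against 6.64%, 0.472% and again 0.00709% of all genes.

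Genes upstream of the members were taken from a list of the pathway. Of 21 interferon genes 15 had no count in any of the 36 libraries and none passed the filter on low counts. Apart from Ifnz the others summed to 14 counts over all libraries, with at most 3 in 1 library: Ifng had 6, Ifnb1 4, Ifna5 2, and Ifna4 and Ifnk 1 each. Ifnz had 32 counts in 10 libraries. At this depth interferon RNA was not detectable at a level that allows a comparison.

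In HSC at 12 h most receptor chains rose. Of 5 tested 4 were called higher, where 17% of all genes were: Ifnar1 and Ifnar2, the type I receptor, by 0.76 and 0.56 on the log2 scale, and Ifngr1 and Ifngr2, the type II receptor, by 0.96 and 0.58. Ifnar1 stood at 84.3, 74.5, 80.3 and 72.5 CPM in WT and 128.2, 133.6, 146.7 and 113.1 CPM at 12 h, and in LSEC at 72.3 to 78.0 CPM and 64.6 to 85.1 CPM. The HSC groups were apart and those of LSEC were not, and LSEC had 0 of 5 receptor chains called by edgeR, 0 at an unadjusted p under 0.05 and 0 by DESeq2, with log2 fold changes of -0.12 to 0.17. By the test of the difference, the 12 h response of Ifngr1 was higher in HSC than in LSEC by 0.79 ± 0.18 on the log2 scale (SE; adjusted p = 0.0118), and that of Ifnar1 did not pass (0.70 ± 0.21, SE; adjusted p = 0.0929). With the replicate number shared by HSC and LSEC as a block, 4 of the 5 chains passed (3.38% of all genes were called higher), Ifnar1 at 0.72 ± 0.11 (adjusted p = 0.00288), Ifnar2 at 0.50 ± 0.11 (0.0211), Ifngr1 at 0.81 ± 0.14 (0.00578) and Ifngr2 at 0.52 ± 0.14 (0.0413).

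Of 5 JAK and STAT genes tested, Jak1 and Stat2 rose in HSC at 12 h, by 0.55 and 0.68 on the log2 scale. Jak2, Tyk2 and Irf9 did not pass, and 17% of all genes were called higher. Jak1 stood at 459, 470, 414 and 394 CPM in HSC WT libraries and 845, 746, 465 and 446 CPM at 12 h, with replicates 3 and 4 inside the WT range. Stat2 stood at 94.1, 128.7, 108.8 and 115.9 CPM in HSC WT libraries, 192.7, 150.96, 208.6 and 153.4 CPM at 12 h and 167.2, 115.65, 158.1 and 149.4 CPM at 36 h. The 12 h libraries were all above those of WT and replicate 2 of 36 h lay inside the WT range, and the 36 h change from WT did not pass (log2 fold change 0.40, adjusted p = 0.54). In LSEC 0 of 5 passed by edgeR and 0 by DESeq2, and 3 had an unadjusted p under 0.05. The share of all genes at that unadjusted threshold is not given here, so the 3 have no reference. Of all genes in LSEC, edgeR called 9.74% higher and 8.5% lower at 12 h, and DESeq2 called 21.6% in either direction. There Stat2 stood at 75.6 to 86.3 CPM in WT and 89.2 to 154.3 CPM at 12 h, without overlap (log2 fold change 0.44, adjusted p = 0.113).

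Of 11 genes of interferon induction tested in HSC 8 rose at 12 h, against 17% of all genes, among them the kinase Ikbke by 2.06, the factor Irf7 by 1.36 and Tmem173 (STING, the adaptor of cytosolic DNA sensing) by 1.03. In LSEC 3 of 10 rose, against 9.74% of all genes: Tmem173 by 1.18, Mb21d1 (cGAS, the DNA sensor) by 0.73 and Myd88 by 0.44. Tmem173 was called in both cell types without overlap of the libraries, at 46.4 to 54.5 CPM in HSC WT libraries against 74.6 to 137.8 CPM at 12 h, and at 56.8 to 79.8 against 122.2 to 219.2 CPM in LSEC. Irf7 stood at 125.9, 217.9, 154.6 and 202.0 CPM in HSC WT libraries, 316, 202.5, 831 and 426 CPM at 12 h and 499, 318.5, 544 and 1038 CPM at 36 h, where the change from WT did not pass (adjusted p = 0.164).

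Of 6 inhibitors of the pathway 4 were higher and 1 lower in HSC at 12 h, against 17% and 15.1% of all genes: Socs1 rose by 1.97, Socs3 by 1.75, Ptpn2 by 0.79 and Irf2 by 0.44, and Pias1 fell by 0.51. Socs1 stood at 10.7, 26.1, 11.2 and 10.6 CPM in HSC WT libraries and 66.9, 12.6, 39.2 and 108.6 CPM at 12 h, with replicate 2 inside the WT range. Socs3 stood at 137.9, 362.7, 70.4 and 109.6 CPM in HSC WT libraries and 814.9, 180.2, 272.5 and 993.5 CPM at 12 h, with replicates 2 and 3 inside the WT range. In LSEC edgeR called 1 of 6, Socs1, which rose by 1.25 on the log2 scale, where 9.74% of all genes were called higher. DESeq2 called 2 of the 6 and 21.6% of all genes. Socs1 stood at 29.5 to 73.8 CPM in LSEC WT libraries and at 170.8, 49.4, 58.6 and 162.4 CPM at 12 h, with replicates 2 and 3 inside the WT range. By 36 h Socs1 and Socs3 were lower than at 12 h in both cell types, where 15% of all genes were called lower in HSC and 10.8% in LSEC. No pathway gene was called against WT by edgeR. DESeq2 called 1 gene of induction in HSC and 0 genes in LSEC, against 0.832% and 0.82% of all genes. The pathway genes at an unadjusted p under 0.05 were 6 in HSC and 1 in LSEC, against 6.85% and 10.5% of all genes.

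**Figure D5:**
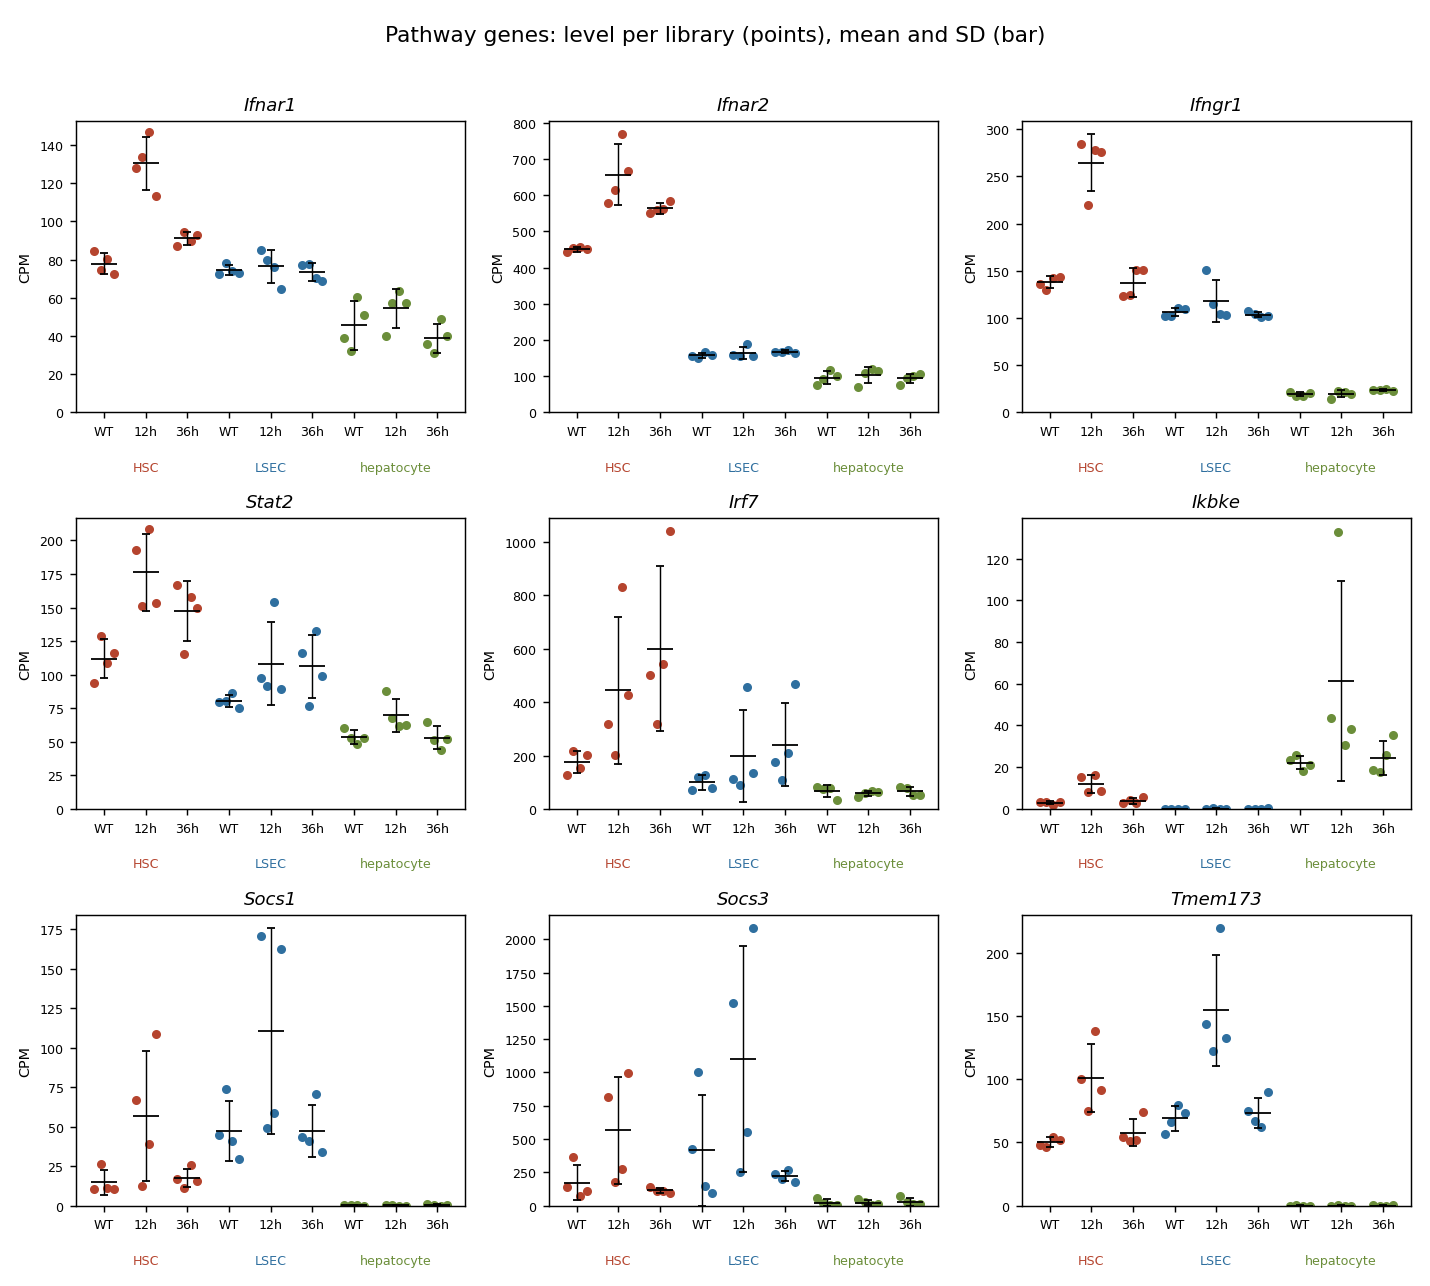
CPM of 9 pathway genes in each library (points), with the mean and SD of 4 libraries (black), by cell type and time. Ifnar1 and Ifnar2 were called higher at 12 h in HSC and not in LSEC, Tmem173 in both, and Irf7 has its highest HSC library at 36 h.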

How the data were processed

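Per the labels and the series design, RNA of HSC, LSEC and hepatocytes was sequenced in 36 libraries, and the authors deposited read counts per gene symbol, 1 file per library. Per the submitters' processing notes, FastQC 0.11.4, Trimmomatic 0.35, TopHat2 2.1.0, SAMtools 0.1.18 and mm10 were used. Not given in the sources used here are the counting tool, its strand setting and its annotation, so reads shared by close copies or overlapping genes may have been split or lost. Reads in no gene (4.9 to 9.02% of a library) and the other 4 lines without a gene were left out. Within groups, 54 library pairs were compared and 0 held the same counts.

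Counts were tested with edgeR 4.0.16 in R 4.3.3 (quasi-likelihood F test, TMM scaling, filterByExpr by group with a minimum count of 10 and a total of 15), adjusted by Benjamini-Hochberg over all genes tested, with 0.05 as the threshold. Each cell type had a fit of 3 groups, the WT comparison used 12 libraries and response differences used 36. SE is the absolute log2 fold change divided by the square root of F. Printed CPM use TMM scaling over the 36 libraries, and exon lengths come from GENCODE M21. Promoter windows come from RefSeq (GRCm38.p6). The scripts were tested on simulated counts with known fold changes.

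Same-numbered HSC and LSEC libraries deviated together from their group means in 12 of 12 pairs (correlations 0.103 to 0.481 over genes), so the number was taken to pair HSC with LSEC at each time. It did not pair HSC with hepatocytes (0 of 12 pairs over 0.1) or LSEC with hepatocytes (3 of 12). Across times within a cell type, 20 of 36 same-numbered pairs were over 0.1, with a range of -0.185 to 0.575. Hepatocyte WT and 36 h libraries of replicates 1 to 4 stood at 0.542, 0.557, 0.575 and 0.44, and those of HSC at 0.228, 0.146, 0.263 and 0.11. The cause was not tested, and the main fits had no block for the number. The alternatives were RLE scaling, no filter, DESeq2 1.42.0, the replicate block, 1 fit of all libraries, a term for the hepatocyte Malat1 sides and leaving out each library. After seeing the data, fits of each Malat1 side and fits without HSC and LSEC 12 h replicate 3 and 36 h replicate 4 were added.

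Values per library are printed, per cell type, for the 4 called members with the largest change at 12 h and a group mean that reached 5 CPM in 1 of the groups, members called at 36 h against WT, the 2 of highest level per kb, and families whose members differ in call. Other members named were chosen after their values were seen. The members, the lists and this rule were chosen with earlier results of these data known. Some genes of the pathway list are not reported here.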

Additional observations from a re-analysis of the deposited data

Results flagged for a closer look

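This screen covered a list of members named above and not all members. Of 158 groups of 4 libraries examined for them, 11 held 1 library whose gap to the nearest other was large against the range of the group. Chance alone flags about 1 in 20 groups. LSEC 12 h replicate 3 stood high for Isg15 (120.7 CPM), Lgals3bp (1914 CPM) and Mx1 (1.116 CPM), and HSC 12 h replicate 3 for Mx1 (8.686 CPM) and Oas3 (4.973 CPM). HSC 36 h replicate 4 stood high for Mx1 (2.559 CPM). Among WT libraries LSEC replicate 2 stood high for Rsad2 (125.2 CPM), LSEC replicate 4 low for Mx2 (1.161 CPM), HSC replicate 1 low for Usp18 (67.51 CPM) and hepatocyte replicate 2 high for Oasl1 (45.67 CPM). Hepatocyte 12 h replicate 2 stood high for Oasl2 (2.416 CPM). The 12 h response differed between cell types by the test of the difference for 6 members between LSEC and hepatocytes and for 25 between HSC and hepatocytes.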

How the results depend on the processing

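No called member changed direction under any alternative run. The call was kept under every alternative run by 32 of the 35 members higher in HSC at 12 h, 4 of 11 in LSEC, 0 of 1 in HSC at 36 h, 9 of the 23 and 0 of 4 called in HSC and LSEC between 12 h and 36 h, 12 of 25 and 0 of 6 of the response differences from hepatocytes, and 20 of 22, 34 of 34 and 34 of 38 of the WT differences of LSEC from HSC, LSEC from hepatocytes and HSC from hepatocytes. DESeq2 gave 20 members higher in LSEC at 12 h, 4 higher in HSC at 36 h and 12 for the LSEC and hepatocyte response difference, which was 3 without the filter on low counts. In 1 fit of all libraries 12 members were lower in HSC at 36 h than at 12 h and 0 were higher than WT. Within 1 cell type, 20 of 36 same-numbered pairs of times had a correlation over 0.1. With the replicate number as a block there, 0 members were higher in HSC at 36 h and 1 was lower in LSEC at 36 h than at 12 h. With the number as a block that pairs HSC with LSEC within each time, 9 members differed between HSC and LSEC at 12 h. Without HSC and LSEC 12 h replicate 3 and 36 h replicate 4, 0 members were higher in HSC at 36 h, 3 differed in response between LSEC and hepatocytes and 1 between HSC and LSEC. The cause was not tested. Leaving out each library in turn gave 0 to 2 members higher in HSC at 36 h, 11 to 30 lower in HSC from 12 h to 36 h, 4 to 21 higher in LSEC at 12 h, 0 to 9 lower in LSEC from 12 h to 36 h, and 14 to 27 and 0 to 11 for the response differences of HSC and LSEC from hepatocytes. Members under about 1 CPM (Mx1, Oas3 and Epsti1 in most groups) are limited by depth.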
